A study of Mus musculus with 10 samples.

Results

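The genes described here set, copy and remove methylation of cytosine in DNA. They are Dnmt1, Dnmt3a, Dnmt3b, Dnmt3l, Uhrf1, Tet1, Tet2, Tet3 and Tdg, chosen by name. Their transcripts were found by matching the transcript identifiers of the files to GENCODE M21 symbols, and all 9 were among the 15269 listed transcripts, 14534 of which are coding. Each gene was represented by 1 listed transcript. Of the 9, 8 passed the filter on low values (at least 10 reads in at least 2 libraries), and Tdg did not.

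The DNA methyltransferases DNMT3A and DNMT3B place methyl groups on unmethylated cytosines, and DNMT3L is their catalytically inactive partner. After replication DNMT1, which UHRF1 brings to hemimethylated DNA, copies the pattern to the new strand. The TET enzymes oxidize 5-methylcytosine, and TDG, a DNA glycosylase, cuts out the oxidized bases so that base excision repair can restore an unmethylated cytosine. Mouse embryonic stem cells are known for expressing both the de novo methyltransferases and TET1 and TET2.

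CGR8 cells, an embryonic stem cell line of mouse strain 129, were grown without feeder cells in leukemia inhibitory factor. Ribosome footprints, the RNA fragments that ribosomes protect from RNAse, were sequenced from untreated control cells and from cells given DMDA-PatA (1 µM for 10 min), harringtonine (2 µg/ml for 10 min) or puromycin (0.2 mg/ml for 20 min). Each condition has 2 libraries. A further 2 libraries held the fragmented RNA of untreated cells (the transcriptome). The design asks how far each drug removes footprints from a transcript. DMDA-PatA is an analogue of pateamine A that binds the initiation factor eIF4A, harringtonine blocks elongation shortly after initiation, and puromycin is an aminoacyl-tRNA mimic that ends the growing chain. All cells had the same amount of DMSO, and cycloheximide was added only after cooling. The study calls the replicates biological, and they come from 1 cell line. The 3 drugs were each used at 1 dose and 1 time, which differ between them, and all 3 are compared with the same 2 control libraries.

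The libraries held 9104220 and 10614247 reads on coding sequences (CDS) in the control, between 618334 and 1944784 with a drug, and 16649611 and 38046741 in the transcriptome. All 10 markers of embryonic stem cells on a marker list were present in the transcriptome, at a summed level of 1465 and 1574 RPKM (here reads per kb of CDS, scaled to the CDS reads of the library). Of 8 fibroblast markers, 6 reached a level of 1 in both transcriptome libraries, and the 8 summed to 1813 and 1938. Most of that sum came from Col1a1 (1183 and 1270). Col1a2 (272 and 273), Postn (220 and 249), Col3a1 (90.1 and 93.8), Pdgfrb (36.6 and 39.8) and Thy1 (9.52 and 10.4) were present too. Dcn stood at 0.452 and 0.693 and Lum at 1.18 and 0.959. The 4 listed endoderm markers summed to 4.37 and 5.14, the 4 primed or mesoderm markers to 98.6 and 117 and the 3 neural markers to 73.3 and 83.1. The part of cells with such markers in the values below was not tested, and in these bulk samples fewer cells of a type and less RNA per cell cannot be told apart.

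The bases around the start codon are shown first, because every comparison below divides a transcript at that codon into its 5' UTR and its CDS. They are read 5' to 3' from the listed transcripts on the GRCm38 genome, 12 bases on each side, with the start codon in capitals.
Dnmt1: gcaacctgcaagATGccagcgcgaaca
Uhrf1: tacatcggcatcATGtggatccaggtt
Dnmt3a: tactgcccagcaATGccctccagcggc
Dnmt3b: cgacaggaaacaATGaagggagacagc
Dnmt3l: ccgattacatcaATGggttcccgggag
Tet1: tactctgcagccATGtctcggtcccgc
Tet2: gaagcaagcctgATGgaacaggacaga
Tet3: gttccaggtcagATGgactcagggcca
Tdg: ggcggcgccgccATGgacgcagaggcc

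These start codons lie at chr9:20952785-20952787 on the minus strand for Dnmt1 (exon 1 of 39), chr17:56305098-56305100 on the plus strand for Uhrf1 (exon 2 of 17), chr12:3835198-3835200 on the plus strand for Dnmt3a (exon 2 of 23), and chr2:153661431-153661433 on the plus strand for Dnmt3b (exon 2 of 23). For Dnmt3l the codon is at chr10:78050083-78050085 on the plus strand (exon 3 of 14), for Tet1 at chr10:62880012-62880014 on the minus strand (exon 2 of 13), for Tet2 at chr3:133488669-133488671 on the minus strand (exon 3 of 11), for Tet3 at chr6:83404777-83404779 on the minus strand (exon 3 of 11) and for Tdg at chr10:82630016-82630018 on the plus strand (exon 1 of 10). A purine 3 bases before the codon together with a G directly after it was found in Tdg and in none of the 8 measured genes. Of 11345 listed coding transcripts that start with ATG, 43.7% have this pair. The match is a description of these bases.

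The genes differ in what precedes the start codon. Upstream AUG codons number 7 in the Tet2 5' UTR of 382 nt, 4 each in Dnmt3l (283 nt) and Tet3 (228 nt), 3 in Dnmt1 (192 nt), 2 in Tet1 (294 nt) and 1 each in Dnmt3a (262 nt) and Tdg (157 nt), while Dnmt3b (130 nt) and Uhrf1 (253 nt) have none. Over the same 11345 transcripts 51.3% have at least 1, and the median 5' UTR has 171 nt. In Dnmt1 the AUGs at transcript positions 34 and 58 are in the frame of the CDS with no stop codon between, so that a read on them cannot be assigned to a separate short reading frame. In Tet2, 6 of the 7 open reading frames end within the 5' UTR, and the seventh, of 21 nt, starts at position 363 and ends at 383, on the first base of the start codon. The values belong to the listed transcript only. Dnmt3a, for example, was listed as Dnmt3a-201, 1 of 18 annotated transcripts with 4 annotated start codons.

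Tdg had no read on its CDS or 5' UTR in any of the 10 libraries. A count of 0 allows up to 3 reads in a library, or 0.143 and 0.0624 RPKM in the transcriptome, for counting error only. Its 3' UTR carried 11 and 32 transcriptome reads. The authors left out reads with more than 1 match, and 90.3% of the stretches of 30 nt in the Tdg CDS occur more than once in the genome, against a median of 0% over 14289 coding sequences. Its footprints could therefore not be measured here, and whether it is translated was not tested. The same share is 37.3% for Uhrf1 and 22.9% for Dnmt3b and at most 0.853% for the other members. The levels of Uhrf1 and Dnmt3b thus rest on the rest of their sequence, which lowers them against those of other genes and leaves comparisons of libraries within the gene in place. Stretches that do not occur unbroken in the genome add 24.1% in Dnmt3l, 22.3% in Dnmt3b, 20.4% in Dnmt1, 19.9% in Dnmt3a and 7.68% in Uhrf1. In Tet1, Tet3 and Tet2 they add 4.73%, 4.14% and 3.59%. The paper states that short reads are aligned inefficiently to splice junctions. Such stretches may lower the levels of the Dnmt genes and Uhrf1 against those of the Tet genes, which was not tested. Dnmt3l overlaps Aire and Dnmt3b overlaps the antisense RNA Dnmt3bos on the opposite strand. Whether reads were counted by strand is not given in the sources used here.

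In untreated cells, RNA and footprints ranked the 8 measured genes differently. Tet1, the oxidase best known from embryonic stem cells, had the most RNA per length, with 207 and 206 RPKM in the transcriptome. On the same scale Dnmt3l followed at 113 and 128. Dnmt1 stood at 95.4 and 78.5, Tet2 at 85.2 and 84.9 and Dnmt3b at 82.7 and 82.1, and the range of Dnmt1 covered those of the other two. Uhrf1 at 48.6 and 42.0 and Dnmt3a at 46.8 and 43.0 also overlapped, and Tet3 was lowest at 15.95 and 13.9.

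Footprint levels, in RPKM of footprint reads, were highest for Dnmt3l at 287 and 289. Dnmt1 followed at 155 and 153, then Dnmt3b at 108 and 131 and Uhrf1 at 95.5 and 110, whose ranges overlapped. Dnmt3a at 58.7 and 70.1 overlapped Tet1 at 64.1 and 56.5. Tet2 stood at 31.6 and 28.6 and Tet3 at 2.99 and 2.81. The 3 Tet genes together made up 44.4% and 45.0% of the summed RNA level of the 8 genes in the transcriptome libraries, and 12.3% and 10.4% of their summed footprint level in the control libraries. These rankings and shares carry the limit from sequence found once in the genome, given above.

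Translation efficiency, the ratio of control footprints to transcriptome reads on the CDS after scaling to equal CDS totals, separated the 2 sides of the pathway. It was tested on the reads with edgeR's quasi-likelihood test, over 14017 transcripts with Benjamini-Hochberg adjustment, and 29.7% of them were called higher and 41.3% lower, with a median of -0.19 on the log2 scale. Of the 8 genes, the 5 that write or copy methylation were higher and the 3 Tet genes lower. On the log2 scale the efficiency was 1.26 for Dnmt3l (SE 0.10, adjusted p = 7.35e-10 in edgeR), 1.18 for Uhrf1 (SE 0.11, adjusted p = 6.70e-09) and 0.83 for Dnmt1 (SE 0.10, adjusted p = 6.03e-07). For Dnmt3b it was 0.54 (SE 0.10, adjusted p = 0.000103 in edgeR) and for Dnmt3a 0.52 (SE 0.11, adjusted p = 0.000218). Tet2 stood at -1.50 (SE 0.10, adjusted p = 5.27e-11 in edgeR), Tet1 at -1.78 (SE 0.10, adjusted p = 6.99e-12) and Tet3 at -2.36 (SE 0.13, adjusted p = 7.39e-12). Over the 4 pairings of a control with a transcriptome library, the ranges of Dnmt3l and Uhrf1 overlapped, as did those of Uhrf1 and Dnmt1 and those of Dnmt3b and Dnmt3a, and no other neighbours in this order overlapped.

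Translation efficiency fell with the length of the CDS over all transcripts, so each gene was also set beside well expressed transcripts (at least 100 transcriptome reads and 100 control footprints) of its own length class, as a description with no test. Dnmt1, with a CDS of 4860 nt, stood at the 98.1st percentile of 936 transcripts between 3000 and 5000 nt, whose median was -0.78 on the log2 scale. Uhrf1 was at the 98.2nd percentile of 1411 transcripts between 2000 and 3000 nt, with Dnmt3b at the 85.6th and Dnmt3a at the 85.3rd, where the median was -0.34. Dnmt3l was at the 94.8th percentile of its class of 3182 shorter coding sequences. The Tet genes have long coding sequences, and in the class of 246 transcripts between 5000 and 7000 nt, whose median was -1.13, Tet2 stood at the 29.7th percentile, Tet1 at the 20.7th and Tet3 at the 8.94th. The plot of translation efficiency against length shows both groups within the cloud of all coding sequences.

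**Figure D1:**
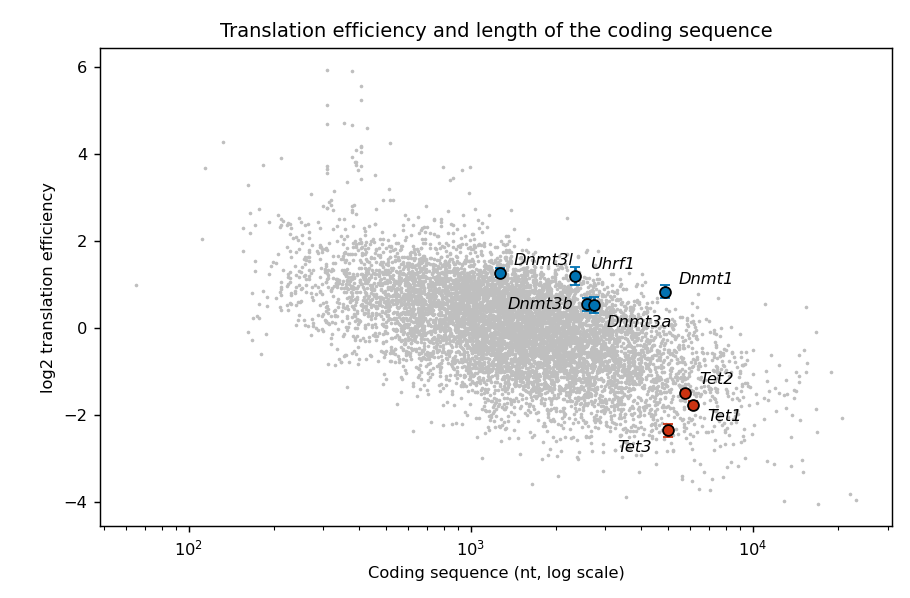
Translation efficiency on the log2 scale (vertical) against the length of the coding sequence (horizontal, log scale) for 8461 well expressed coding transcripts (grey) and the 8 measured genes, with Tet genes in red and the others in blue. Bars span the 4 pairings of control and transcriptome libraries. Dnmt1 lies at 0.83 near the upper edge for its length, and Tet3 at -2.37 toward the lower edge.

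Each drug then removed most CDS footprints from each of the 8 genes. The values below are normalized footprints, reads that the authors scaled so that all footprint libraries hold equal numbers of spike-in reads, and they show absolute losses. Dnmt1, the maintenance methyltransferase, carried 8067 and 7178 normalized CDS footprints in the control libraries, while DMDA-PatA left 290 and 475, harringtonine 1089 and 592 and puromycin 273 and 382. Puromycin thus left as few Dnmt1 footprints as DMDA-PatA, with overlapping libraries, and harringtonine left more than either. Uhrf1, its recruiting partner, carried 2405 and 2481 in the control, while DMDA-PatA left 58.7 and 106, harringtonine 242 and 146 and puromycin 360 and 364. Its order, with DMDA-PatA lowest and puromycin highest, had no overlap between the drugs.

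Among the de novo genes, Dnmt3a carried 1716 and 1838 normalized CDS footprints in the control, while DMDA-PatA left 110 and 104, harringtonine 548 and 252 and puromycin 263 and 235. The harringtonine libraries of Dnmt3a lay far apart and overlapped the puromycin libraries, while DMDA-PatA lay below both. Dnmt3b carried 2993 and 3262 in the control, while DMDA-PatA left 42.9 and 47.9, harringtonine 166 and 121 and puromycin 445 and 275. Dnmt3l, the inactive partner, carried 3888 and 3517 in the control, while DMDA-PatA left 116 and 162, harringtonine 555 and 305 and puromycin 641 and 836. In Dnmt3b and Dnmt3l the 3 drugs stood in the same order as in Uhrf1, again without overlap.

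Of the oxidases, Tet1 carried 4209 and 3326 normalized CDS footprints in the control, while DMDA-PatA left 54.9 and 78.7, harringtonine 301 and 170 and puromycin 318 and 448. Tet2 carried 1943 and 1581 in the control, while DMDA-PatA left 35.98 and 39.8, harringtonine 121 and 52.5 and puromycin 139 and 149. Tet3 carried 160 and 135 in the control, while DMDA-PatA left 7.58 and 6.49, harringtonine 14.2 and 10.5 and puromycin 31.0 and 47.3. All 3 had the same order of drugs without overlap, but Tet3 rests on 8 to 15 reads in each DMDA-PatA and harringtonine library. The median log2 changes over all transcripts, -4.32, -2.97 and -2.48 with DMDA-PatA, harringtonine and puromycin, stand in this order too. It therefore does not set these genes apart, and how many transcripts show it without overlap was not counted. Of the genes with this order, only Dnmt3b and Tet3 passed the test between harringtonine and puromycin below.

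**Figure D2:**
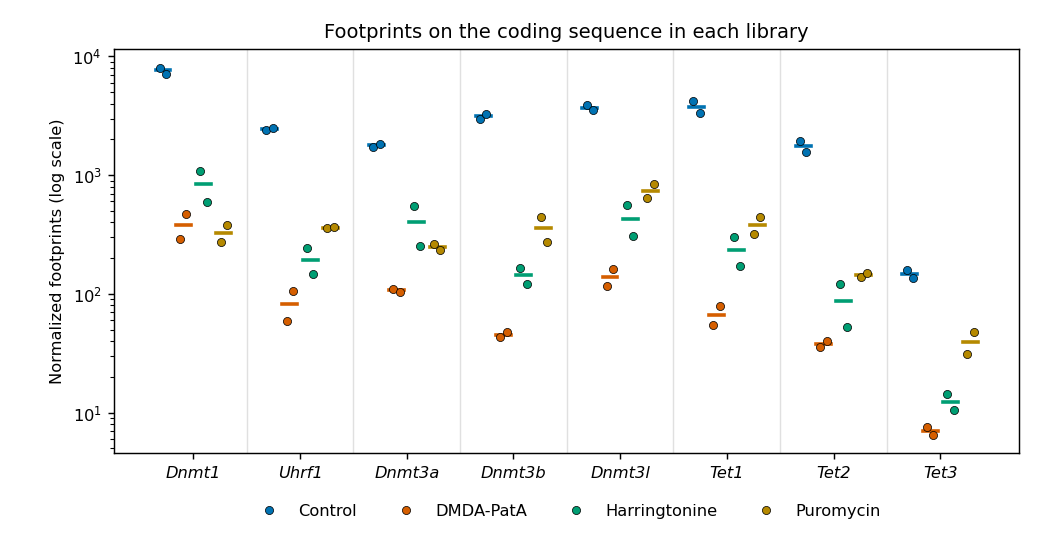
Normalized footprints on the coding sequence (vertical, log scale) of the 8 measured genes in the control, DMDA-PatA, harringtonine and puromycin libraries. Points are single libraries, 2 for each condition, and lines their means. All drug libraries lie below both control libraries of their gene, and in Dnmt1 the puromycin points lie at the level of the DMDA-PatA points.

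Fold inhibition is how many times the mean of the normalized control libraries exceeds that of the drug libraries. With DMDA-PatA it was 68.9 fold for Dnmt3b, 56.4 fold for Tet1, 46.5 fold for Tet2, 29.6 fold for Uhrf1, 26.7 fold for Dnmt3l, 21.0 fold for Tet3, 19.9 fold for Dnmt1 and 16.6 fold for Dnmt3a, and over the 4 pairings of libraries each range overlapped that of the next gene in the order. The median of 8461 well expressed transcripts was 22.4 fold. With harringtonine, where that median was 8.70 fold, inhibition ran from 21.8 fold for Dnmt3b and 20.3 fold for Tet2 down to 4.44 fold for Dnmt3a, and neighbours again overlapped. With puromycin Dnmt1 was inhibited 23.3 fold, with a range of 18.8 to 29.6 fold that did not overlap the 10.6 to 14.0 fold of Tet2, the next gene. At the other end Tet3 was inhibited 3.77 fold by puromycin, against a median of 6.32 fold over all. In its length class, with a median of 12.6 fold, it stood at the 1.63rd percentile.

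In edgeR's quasi-likelihood test on the authors' size factors, 8 of 8 genes were lowered by each drug. The test also called 99.3%, 92.8% and 90.1% of 12499 transcripts lower with DMDA-PatA, harringtonine and puromycin, and 0.064%, 0.512% and 0.344% higher, so this count does not set the genes apart. With DMDA-PatA the log2 fold changes ran from -6.10 in Dnmt3b (SE 0.54, adjusted p = 3.88e-28 in edgeR) to -4.05 in Dnmt3a (SE 0.48, adjusted p = 1.13e-16), and with harringtonine from -4.45 in Dnmt3b (SE 0.49, adjusted p = 3.39e-18 in edgeR) to -2.15 in Dnmt3a (SE 0.44, adjusted p = 1.74e-06). With puromycin they ran from -4.54 in Dnmt1 (SE 0.50, adjusted p = 8.18e-18 in edgeR) to -1.88 in Tet3 (SE 0.47, adjusted p = 0.000105). The median over the 8 genes was -4.81, -3.62 and -2.98 for the 3 drugs, beside -4.32, -2.97 and -2.48 over all transcripts tested.

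A gene may lose more or fewer footprints than the typical transcript, and this was tested by scaling the libraries to their CDS totals with TMM factors, which takes out the change common to all transcripts. The log2 changes that follow are on this relative scale. With DMDA-PatA, 5 of 8 genes were lower and 0 higher, beside 23.8% of all transcripts lower and 18.8% higher. Lower were Dnmt3b at -1.86 (SE 0.24, adjusted p = 1.11e-06 in edgeR), Tet1 at -1.59 (SE 0.20, adjusted p = 6.10e-07) and Tet2 at -1.28 (SE 0.21, adjusted p = 3.06e-05). Uhrf1 fell by 0.70 (adjusted p = 0.00346 in edgeR), and the call was lost without control replicate 2 (adjusted p = 0.0617) and without DMDA-PatA replicate 1 (adjusted p = 0.0545). Dnmt3l fell by 0.51 (adjusted p = 0.0252 in edgeR) and lost its call with any 1 of the 4 libraries left out, at adjusted p between 0.0641 and 0.151, and with totals in place of TMM factors (adjusted p = 0.102) or median-ratio factors (adjusted p = 0.0557). Dnmt1 (-0.11, 95% interval -0.47 to 0.24), Dnmt3a (0.22, -0.19 to 0.62) and Tet3 (-0.12, -0.86 to 0.62) did not pass.

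With harringtonine 4 genes were lower and 1 higher, beside 30.2% and 26.5% of all transcripts. Those lower were Dnmt3b at -1.57 (SE 0.22, adjusted p = 1.45e-06 in edgeR), Tet2 at -1.55 (SE 0.20, adjusted p = 3.77e-07), Tet1 at -1.16 (SE 0.18, adjusted p = 8.10e-06) and Uhrf1 at -0.81 (SE 0.18, adjusted p = 0.000384). Dnmt3a rose on this scale by 0.64 (SE 0.20, adjusted p = 0.00759 in edgeR), while its absolute footprints fell. Without control replicate 1 it stood at 0.48 (adjusted p = 0.136 in edgeR) and without harringtonine replicate 1 at 0.47 (adjusted p = 0.0852). Dnmt3l (-0.27), Tet3 (-0.70) and Dnmt1 (-0.35) did not pass, with adjusted p of 0.191, 0.0706 and 0.102 in edgeR. With library totals in place of TMM factors these 3 passed too, so that 7 genes were lower. With no filter on low reads Tet3 (-0.79, adjusted p = 0.0407 in edgeR) and Dnmt1 (-0.44, adjusted p = 0.0386) passed as well.

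With puromycin 4 genes were lower and 0 higher, beside 25.1% and 24.1% of all transcripts. Dnmt1 fell by 2.08 (SE 0.19, adjusted p = 4.64e-09 in edgeR), which put it at the 3.66th percentile of all transcripts tested, and at the 93.1st percentile of fold inhibition among well expressed coding sequences of its length class. Tet2 stood at -1.15 (SE 0.20, adjusted p = 3.64e-05 in edgeR) and Tet1 at -0.83 (SE 0.18, adjusted p = 0.000557). Dnmt3b fell by 0.69 (adjusted p = 0.00975 in edgeR), but did not pass without control replicate 2 (adjusted p = 0.104) or without puromycin replicate 2 (adjusted p = 0.245). Unlike Dnmt1, these genes lay below the median fold inhibition with puromycin in their length classes. Tet2 stood at the 48.8th percentile, Dnmt3b at the 47.3rd and Tet1 at the 32.5th. Uhrf1 (-0.31), Dnmt3a (-0.39), Dnmt3l (0.13) and Tet3 (0.59, SE 0.29, adjusted p = 0.0945 in edgeR) did not pass, and Dnmt3a did with no filter on low reads (-0.50, adjusted p = 0.0316).

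**Figure D3:**
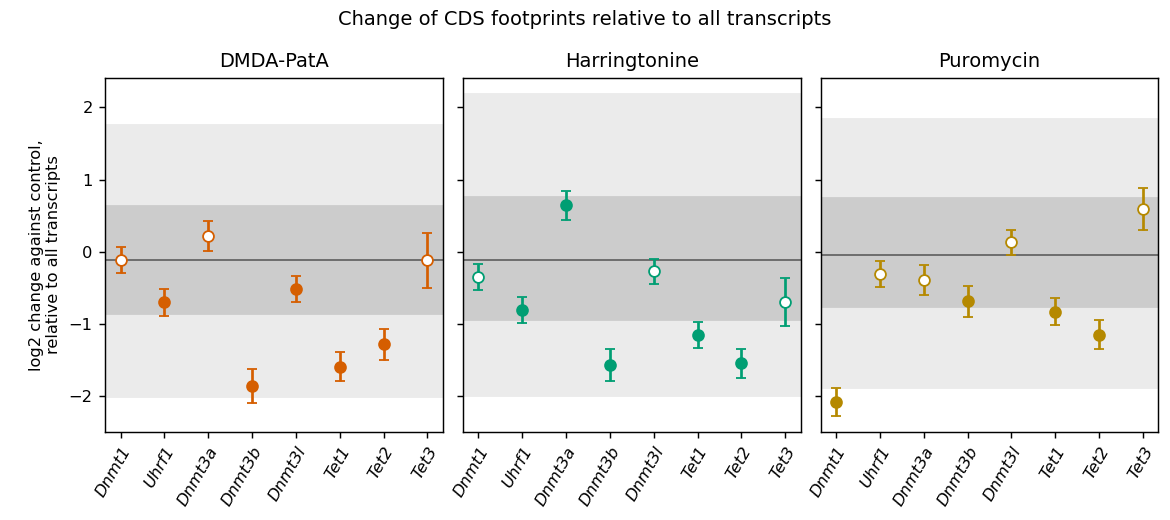
The log2 change of CDS footprints against the control relative to all transcripts (vertical) for the 8 measured genes, 1 panel per drug. Points carry their SE and are filled where the adjusted p is under 0.05, and the dark band, the light band and the line show the middle 50%, the middle 90% and the median of 12499 transcripts. Dnmt1 leaves the light band with puromycin, at -2.08, and lies near the median line with DMDA-PatA.

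The drugs were also compared with each other on the authors' size factors, although their doses and times differ. DMDA-PatA left fewer footprints than puromycin on 7 of 8 genes, beside 67.3% of all transcripts, with log2 differences from -2.98 in Dnmt3b to -1.21 in Dnmt3a. The call of Dnmt3a was lost without puromycin replicate 1 (adjusted p = 0.0878 in edgeR) or 2 (adjusted p = 0.0576). Dnmt1 was the exception, with a difference of 0.22 (SE 0.44, 95% interval -0.64 to 1.08, adjusted p = 0.657 in edgeR). With TMM factors, which compare the drugs relative to all transcripts, it was 1.96 higher with DMDA-PatA than with puromycin (adjusted p = 2.04e-08 in edgeR). Against harringtonine, DMDA-PatA left fewer footprints on 7 of 8 genes, beside 52.7% of all transcripts, with differences from -1.90 in Dnmt3a to -1.13 in Dnmt1. Tet3 (-0.77, adjusted p = 0.266 in edgeR) did not pass. With TMM factors none of the 8 genes differed between these 2 drugs. Without harringtonine replicate 1 or without DMDA-PatA replicate 1 only 4 genes passed, those lost being Uhrf1, Tet2 and Dnmt1. Tet2 also missed the threshold when DMDA-PatA and harringtonine swapped their size factors (-0.60, adjusted p = 0.0634 in edgeR) and in the blocked fit on replicate numbers (-1.13, adjusted p = 0.0594).

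Between harringtonine and puromycin, 2 genes were lower with harringtonine, beside 9.90% of all transcripts, and 1 was higher, beside 1.19%. Dnmt3b differed by -1.32 (SE 0.44, adjusted p = 0.0321 in edgeR) and Tet3 by -1.70 (SE 0.54, adjusted p = 0.0219). Dnmt1 was 1.36 higher with harringtonine (SE 0.44, adjusted p = 0.0269 in edgeR), and with TMM factors it was 1.73 higher (adjusted p = 4.55e-07). All of these rest on few libraries. Without puromycin replicate 1 or without puromycin replicate 2 none of the 3 passed. Without harringtonine replicate 2 Dnmt3b (adjusted p = 0.0760 in edgeR) and Tet3 (adjusted p = 0.0640) were lost, and without harringtonine replicate 1 Dnmt1 was (adjusted p = 0.0833) while 6 genes were lower.

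The 5' UTR behaved unlike the CDS, and 7 genes had enough reads there for the test. Dnmt1 had the fewest 5' UTR footprints against its CDS in the control, 8.25 and 9.06 normalized footprints, or 7 and 10 reads. DMDA-PatA libraries held 94.1 and 92.5, harringtonine libraries 131 and 49.0 and puromycin libraries 18.6 and 22.4, above both control libraries in each case. Dnmt1 thus passed the filter on low reads only with the help of its drug libraries, which held 149 and 114 reads with DMDA-PatA. The calls below are not independent of that filter, and those of Dnmt1 are given as a description. Of the 7 genes, 1 was higher with DMDA-PatA, beside 14.7% of 6647 tested 5' UTRs, and it was Dnmt1, by 3.41 on the log2 scale (SE 0.57, adjusted p = 6.70e-08 in edgeR). With harringtonine it rose by 3.34 (SE 0.58, adjusted p = 2.13e-07 in edgeR), while with puromycin the change of 1.24 did not pass (95% interval -0.01 to 2.49, adjusted p = 0.424 in edgeR).

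Uhrf1, which has no upstream AUG, carried 69.6 and 58.0 normalized 5' UTR footprints in the control, while DMDA-PatA left 103 and 134, harringtonine 433 and 271 and puromycin 49.6 and 67.1. The rise with harringtonine, 2.46 on the log2 scale (SE 0.47, adjusted p = 2.91e-06 in edgeR), was 1 of 3 in the 7 genes, beside 35.2% of all 5' UTRs higher and 5.27% lower. With DMDA-PatA the change of 0.89 did not pass (adjusted p = 0.0980 in edgeR), but it did with TMM factors (1.50, adjusted p = 0.000237) and when DMDA-PatA and harringtonine swapped their size factors (1.14, adjusted p = 0.00495).

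In Dnmt3l, 216 and 225 normalized 5' UTR footprints in the control became, while DMDA-PatA left 87.8 and 163, harringtonine 613 and 429 and puromycin 108 and 287. The rise with harringtonine was 1.24 on the log2 scale (SE 0.43, adjusted p = 0.0137 in edgeR). It did not pass with TMM factors (0.49, adjusted p = 0.263 in edgeR) or without control replicate 1, control replicate 2 or harringtonine replicate 1 (adjusted p of 0.131, 0.123 and 0.121). Dnmt3b had 21.2 and 22.7 in the control, while DMDA-PatA left 7.58 and 14.6, harringtonine 57.8 and 34.3 and puromycin 26.9 and 24.9, and Dnmt3a had 5.89 and 9.06, 3.79 and 5.68, 19.3 and 12.6, and 8.27 and 13.7 in the same order. Neither passed with any drug, although both lay below the control libraries with DMDA-PatA and above them with harringtonine. Dnmt3a, with 5 and 10 control reads, entered this test only with the help of its drug libraries.

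The 5' UTR of Tet1 lost most of its footprints with DMDA-PatA. It carried 82.5 and 69.8 normalized footprints in the control, while DMDA-PatA left 4.42 and 7.31, harringtonine 117 and 74.9 and puromycin 80.6 and 73.4. The log2 fold change with DMDA-PatA was -3.70 (SE 0.58, adjusted p = 5.58e-09 in edgeR), at the 2.14th percentile of all 5' UTRs, 29.1% of which were called lower. Harringtonine (0.33, 95% interval -0.59 to 1.25) and puromycin (0.01, -0.93 to 0.96) did not pass. Tet2, with 7 upstream AUGs, had 145 and 200 in the control, while DMDA-PatA left 66.9 and 78.7, harringtonine 233 and 144 and puromycin 219 and 208. It fell by 1.25 with DMDA-PatA (SE 0.45, adjusted p = 0.0157 in edgeR), and this call was lost with TMM factors (-0.64, adjusted p = 0.0560), without control replicate 2 (adjusted p = 0.190) and without DMDA-PatA replicate 1 (adjusted p = 0.0655). Tet3 had at most 4 reads on its 5' UTR in a footprint library and was not tested. With puromycin 0 of 7 genes passed in either direction, beside 0.466% of all 5' UTRs lower and 0.587% higher, and 1 had an unadjusted p under 0.05.

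**Figure D4:**
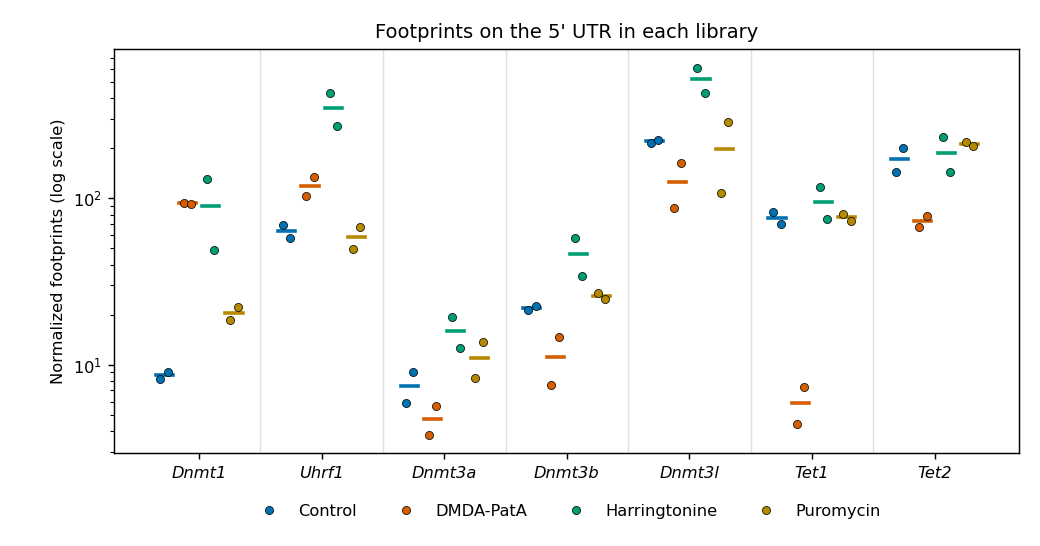
Normalized footprints on the 5' UTR (vertical, log scale) of the 7 genes tested, by condition. Points are single libraries and lines the means of 2. Dnmt1 rises from about 9 in the control to over 90 with DMDA-PatA, and Tet1 falls from 76.2 to 5.86, both as means.

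Scaling matters for these counts. With TMM factors over the 5' UTRs, 1240 were lower and 1424 higher with harringtonine, against 350 and 2340 on the authors' size factors, and 1497 were lower and 1763 higher with DMDA-PatA, against 1932 and 974. The median change moved from 0.88 to 0.15 and from -0.48 to 0.10. The ratio of 5' UTR to CDS footprints within a library does not depend on such factors, and it was tested over 6497 transcripts.

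That ratio rose in 7 of 7 genes with each drug, as it did in 93.6%, 95.3% and 78.5% of all transcripts for DMDA-PatA, harringtonine and puromycin. It fell in 0 of 7, beside 0.139%, 0.123% and 0.0616% of all transcripts. In Dnmt1 5' UTR reads made up 0.102% and 0.126% of 5' UTR and CDS reads in the control. The share was 24.5% and 16.3% under DMDA-PatA, 10.7% and 7.64% under harringtonine and 6.38% and 5.54% under puromycin. Its ratio rose by 7.76 on the log2 scale with DMDA-PatA (SE 0.45, adjusted p = 7.09e-13 in edgeR), 6.44 with harringtonine (SE 0.45, adjusted p = 1.74e-11) and 5.75 with puromycin (SE 0.63, adjusted p = 8.55e-08), the 95.8th, 91.6th and 98.2nd percentiles of all transcripts, whose medians were 4.36, 4.00 and 2.56. Only 7 and 10 control reads lie behind it, and Dnmt1 entered this test too with the help of its drug libraries. So did Dnmt3a, with 5 and 10 control reads.

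Tet1 had the smallest rise of the 7 with DMDA-PatA, 2.12 (SE 0.52, adjusted p = 0.000684 in edgeR, 10.5th percentile), from 1.92% and 2.06% in the control to 7.45% and 8.49%. With harringtonine its share was 27.9% and 30.6%, a rise of 4.34 in the ratio (SE 0.32, adjusted p = 4.05e-11 in edgeR). In Tet2 the 5' UTR held 6.95% and 11.2% of the reads in the control, which became 65.0% and 66.4% under DMDA-PatA, 65.9% and 73.3% under harringtonine and 61.3% and 58.2% under puromycin. Per length, its control 5' UTR with 380 and 524 normalized footprints per kb stood above its CDS with 339 and 276, and in the transcriptome it stood below it (1165 and 1006 against 2186 and 2096). In each of the other 7 measured genes the control 5' UTR was below the CDS per length. How many of all transcripts have the denser 5' UTR was not counted, so this does not set Tet2 apart from them. Uhrf1 went from 2.81% and 2.28% to 63.7% and 55.7% with DMDA-PatA and 64.1% and 64.9% with harringtonine, but 12.1% and 15.6% with puromycin. Dnmt3l went from 5.26% and 6.01% to 43.0% and 50.3%, 52.5% and 58.4%, and 14.4% and 25.6% in the same order. Dnmt3b reached 15.0% and 23.4%, 22.1% and 25.8%, and 5.70% and 8.30%, and Dnmt3a 5.50% at most.

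**Figure D5:**
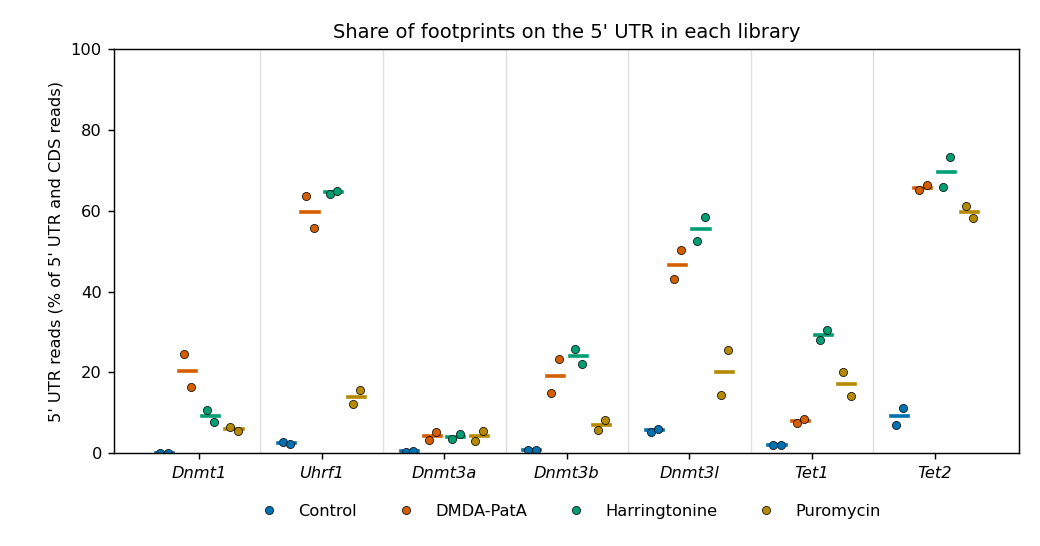
Reads on the 5' UTR as a percentage of 5' UTR and CDS reads (vertical) in each footprint library of the 7 genes, by condition. Points are single libraries and lines the means of 2. In Tet2 the 3 drugs stand between 58.2% and 73.3%, while in Uhrf1 and Dnmt3l puromycin stands well below the other 2 drugs, and in Dnmt3a all 3 stay under 6%.

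Genes that act with these enzymes were described by 4 lists, each beside all transcripts tested, in the fit relative to all transcripts. In that fit 23.8% of all transcripts were lower and 18.8% higher with DMDA-PatA, against 30.2% and 26.5% for harringtonine and 25.1% and 24.1% for puromycin. The paper reports that harringtonine and, most of all, puromycin block shorter coding sequences less. Genes of these lists were not compared within length classes, and the part of length was not tested. Of 17 tested regulators of methylation, 7 were lower and 1 higher with DMDA-PatA, 10 and 0 with harringtonine and 10 and 3 with puromycin, with median log2 changes of -0.54, -0.57 and -0.58, beside -0.12, -0.12 and -0.04 over all. Trim28, the corepressor that holds methylation at imprinted regions, fell with all 3 drugs, at -2.82, -2.86 and -2.88 (SE 0.21 each, adjusted p of 2.36e-10, 3.36e-11 and 6.98e-11 in edgeR). Its partner Zfp57 stood at -3.25 with DMDA-PatA, the lowest of the list there, and the H3K9 methyltransferase Setdb1 at -1.69, -2.32 and -3.78 with the 3 drugs in this order. Hells, a chromatin remodeller needed for DNA methylation, fell by 1.54 with DMDA-PatA (adjusted p = 9.88e-07 in edgeR). Dppa3, which protects the maternal genome from demethylation in the zygote, rose by 2.07 with puromycin (SE 0.29, adjusted p = 1.82e-06 in edgeR), and Ehmt1 by 1.27 with DMDA-PatA.

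A list of readers of methylated DNA and related proteins such as Mbd3 held 8 genes. Of these, 1 was lower and 2 higher with DMDA-PatA, 2 and 2 with harringtonine and 1 and 3 with puromycin. The medians were 0.28, -0.19 and 0.54. Over all transcripts the shares lower and higher were 23.8% and 18.8%, 30.2% and 26.5%, and 25.1% and 24.1%. The zinc finger protein Zbtb38 fell with the 3 drugs, at -1.55, -1.85 and -0.59 (adjusted p of 0.000268, 1.65e-06 and 0.0433 in edgeR). In translation efficiency 6 of the 8 genes were lower and 1, Mbd3, was higher, beside 41.3% and 29.7% of all transcripts. The median was -1.12 beside -0.19, with Zbtb4 the lowest.

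Among 15 tested genes of base excision repair and deamination, 3 were Gadd45 genes, which have been linked to active demethylation. On the relative scale Gadd45g rose by 1.83, 2.45 and 3.44 with DMDA-PatA, harringtonine and puromycin, while Gadd45a rose by 1.79 and Gadd45b by 1.39 with harringtonine and by 2.67 and 2.61 with puromycin. Parp1 fell, at -1.53, -1.10 and -1.21 in the same order. The length of the CDS was not taken into account for these genes. Over the list 2 were lower and 5 higher with DMDA-PatA, 3 and 6 with harringtonine and 3 and 5 with puromycin, beside 23.8% and 18.8%, 30.2% and 26.5%, and 25.1% and 24.1% of all transcripts, and the medians were -0.17, 0.40 and 0.40. Of 10 tested genes that supply methyl groups and cofactors, 4 were lower and 0 higher with DMDA-PatA, 5 and 2 with harringtonine and 6 and 2 with puromycin, beside the same shares, with medians of -0.56, -0.55 and -0.60. Methionine synthase, Mtr, fell, at -1.77, -2.40 and -2.01, and Mat2a, which makes S-adenosylmethionine, rose by 1.13 with harringtonine and 0.83 with puromycin. In translation efficiency 8 of the 10 were higher and 1 lower, beside 29.7% and 41.3% of all transcripts, with a median of 0.98, led by Shmt2 at 1.78. Ahcy had no read on its CDS in the control and transcriptome libraries, and Cxxc4 had too few for the footprint test. Because reads with more than 1 match were left out, whether Ahcy is expressed was not tested.

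For Dnmt1, Dnmt3b and Tet1 the coding transcripts with the most similar footprints over the 6 drug libraries were found by the Euclidean distance of their log2 changes against the mean control (pseudocount 1), among the 8461 well expressed ones. Nearest to Dnmt1 was Thoc2 at a distance of 0.478, then Arfgef2 at 0.702 and Ccdc88c at 0.726, against a median distance of 3.30. Thoc2 had mean log2 changes of -4.33, -3.11 and -4.49 with DMDA-PatA, harringtonine and puromycin. Nearest to Dnmt3b were Zfp940 at 0.453, Ap4b1 at 0.535 and Hk2 at 0.589, and nearest to Tet1 were Spns1 at 0.374, Ccnk at 0.375 and Wbp11 at 0.399, with median distances of 3.51 and 3.03.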

How the data were processed

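Footprints were sequenced on SOLiD and mapped to mm10 with LifeScope, with unique matches kept, and per the submitters' processing notes Picard 1.38 was used. The authors assigned reads to 5' UTR, CDS and 3' UTR and divided them by DESeq2 size factors, from a spike-in for footprints and between replicates for the transcriptome, so the deposited values are a normalized signal per region. Values of each library and region were divided by the smallest positive one, taken as a single read. This gave whole reads for 100% of values at a tolerance of 0.01. The authors' size factors used here were inferred from that smallest value on the CDS. The design had assumed raw reads, and the tests ran on the recovered ones.

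Of 15269 transcripts, 15074 matched GENCODE M21. Reads were tested with edgeR 4.0.16 (quasi-likelihood, Benjamini-Hochberg over all transcripts reaching 10 reads in 2 or more libraries, threshold 0.05), in fits tested on simulated data. The CDS, 5' UTR and between-drug fits used the authors' size factors, the relative fit TMM factors, the ratio fit 1 term per library, and the translation efficiency fit CDS totals. The strand setting of the counting is not given in the sources used here.

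Alternatives were other scalings, filters and tests (DESeq2 1.42.0, limma 3.58.1), a replicate block, leaving out each library, and swapping the factors between DMDA-PatA and harringtonine, since a transcript table of the study follows from these reads only with them swapped. Replicates differed by more than counting noise. Intervals take the SE implied by the edgeR test and a normal quantile, so they can differ slightly from the p-values. That SE uses a spread estimated over all libraries of the fit and moderated across transcripts, not that of 2 libraries alone. Each condition still has only 2 libraries. Members, gene lists and alternatives were chosen with earlier results of these data known. Beside the members, genes of each list with the strongest and weakest loss or the lowest adjusted p, at most 5 a drug, and the 3 transcripts nearest to Dnmt1, Dnmt3b and Tet1 were named. Zbtb4, Shmt2 and the other values of translation efficiency follow the same rule in that fit. Some genes of these lists are not reported here by name.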

Additional observations from a re-analysis of the deposited data

Results flagged for a closer look

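Footprints on the 3' UTR entered no comparison, and they are given for the genes whose drug libraries both lay above both control libraries with at least 3 reads each. No test was run on them, and each rests on few reads. Dnmt3a had a mean of 12.4 normalized 3' UTR footprints with DMDA-PatA (6.94 and 17.9) and 15.97 with harringtonine (14.7 and 17.2), against 6.12 in the control (5.89 and 6.35), from 33, 38 and 12 reads. Tet2 had 11.4 with harringtonine (5.60 and 17.2) against 3.45 in the control, from 25 and 7 reads. Dnmt3b had 5.65 with harringtonine against 2.22, from 13 and 4 reads. Tet3 had 3.29 with DMDA-PatA and 4.44 with harringtonine against 0.589, from 9, 10 and 1 reads.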

How the results depend on the processing

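Of 1114 values of single genes under another setting, 1011 kept their direction and their side of the threshold, 54 lost and 22 gained a call, and 27 changed sign. The choice of scaling mattered most. With TMM factors in place of the authors' size factors, which removes the loss common to all transcripts, 5, 4 and 4 of 8 genes were lower with DMDA-PatA, harringtonine and puromycin, and the calls lower over all transcripts went from 12414, 11605 and 11257 to 2977, 3769 and 3134. The sign turned in Dnmt3a (0.22 with DMDA-PatA, 0.64 with harringtonine), Dnmt3l (0.13 with puromycin) and Tet3 (0.59 with puromycin). Between drugs with these factors, 0 genes were lower with DMDA-PatA than with harringtonine and the sign turned in Uhrf1 (0.11), Tet2 (0.26), Tet3 (0.58) and Dnmt1 (0.24), 3 were lower with DMDA-PatA than with puromycin, with Dnmt3a at 0.61, and 2 were higher with harringtonine than with puromycin. On the 5' UTR they left 1 gene lower and 2 higher with DMDA-PatA and turned Tet1 (-0.43) and Tet2 (-0.65) with harringtonine and Tet1 (-0.040) with puromycin. With library totals in the relative fit 7 genes were lower with harringtonine, and Tet3 (0.021) and Dnmt1 (0.027) turned with DMDA-PatA. With the factors of DMDA-PatA and harringtonine swapped, an alternative described with the processing, 6 genes were lower with harringtonine than with puromycin, beside 4753 transcripts against 1238, 2 were higher on the 5' UTR with DMDA-PatA, Tet2 turned there with harringtonine (-0.15), and Tet2 lost its call between DMDA-PatA and harringtonine (-0.60, adjusted p = 0.0634 in edgeR). With no filter on low reads Tet3 (-0.79) and Dnmt1 (-0.44) with harringtonine and Dnmt3a (-0.50) with puromycin gained a call in the relative fit.

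Deviations of same-numbered libraries correlated at 0.18 between DMDA-PatA and harringtonine, 0.16 between control and DMDA-PatA and 0.11 between control and harringtonine, but at -0.01 between control and puromycin, and 7 of 10 pairs of conditions stood under 0.1, so the numbers were not taken to pair the samples. With the replicate number as a block, 1 gene was lower and 0 were higher with harringtonine than with puromycin, against 2 and 1 in the main fit. Tet2 was lost between DMDA-PatA and harringtonine (adjusted p = 0.0594 in edgeR).

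With 1 library left out at a time, the genes lower with DMDA-PatA than with harringtonine numbered 4 to 7, those lower with harringtonine than with puromycin 0 to 6 and those higher 0 to 2. In the relative fit 3 to 4 genes were lower with DMDA-PatA, 0 to 1 higher with harringtonine and 0 to 1 higher with puromycin, and on the 5' UTR 1 to 3 were lower with DMDA-PatA. Signs turned within -0.18 to 0.53 for Dnmt1 between DMDA-PatA and puromycin, -0.15 to 0.52 for Dnmt3a and -0.55 to 0.25 for Tet3 in the relative fit with DMDA-PatA, and -0.056 to 0.37 for Dnmt3l there with puromycin. On the 5' UTR they did so with harringtonine within -0.022 to 0.62 for Tet1 and -0.26 to 0.43 for Tet2, and with puromycin within -0.10 to 0.14 for Tet1, -1.03 to 0.38 for Dnmt3l and -0.36 to 0.077 for Uhrf1. Over all transcripts 80 counts of calls moved by more than 1.5 times, 46 of them with a library left out. The cause of these changes was not tested beyond what each setting does by construction. Depth limits Tet3 and the 5' UTRs of Dnmt1 and Dnmt3a.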
